A study of Mus musculus with 8 samples.

Results

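The collagen genes of mouse tubuloids, 3D kidney epithelial structures grown from tubule fragments, were examined in RNA-Seq libraries of 8 cultures. The members were all gene symbols of the form Col, number, a, number, which gave 44 genes of the 24063 symbols listed, with counts summed over the transcripts of each symbol. They comprised 8 basement membrane collagens (types IV, XV and XVIII), 11 fibrillar collagens and 25 other collagens. Of these, 41 passed the filter on low counts, and *Col19a1*, *Col22a1* and *Col6a5* did not.

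The 4 control cultures, numbered 3, 7, 14 and 21, received growth factor medium throughout, and the 4 GDNF cultures, numbered 6, 12, 17 and 22, received the same medium with GDNF (glial cell line-derived neurotrophic factor) for the first 24 h. All 8 cultures came from postnatal day 7-10 kidney of the genotype Pkd2fl/fl Pax8rtTA TetOCre mTmG and were collected on culture day 7. In this genotype the *Pax8* promoter places the Cre system in renal epithelium, and Cre activity depends on doxycycline, which no label gives for these cultures. The structures grew between layers of Matrigel, itself a basement membrane extract, and the labels do not say whether the cultures came from separate animals, so p-values measure the spread between these cultures.

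Collagens are triple helices of alpha chains that are hydroxylated and folded in the endoplasmic reticulum, secreted, and then assembled outside the cell. Type IV collagen forms the network of every basement membrane, on which tubule epithelium rests, whereas types I, III and V form the banded fibrils of interstitial matrix and are made mainly by stromal cells. In the kidney, the chains of *Col4a1* and *Col4a2* are found in most basement membranes, and those of *Col4a3*, *Col4a4* and *Col4a5* build the network of the mature glomerular basement membrane, which is defective in Alport syndrome.

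Total transcript counts ranged from 72991721 to 97490625, and the TMM (trimmed mean of M-values) factor was 0.790 in control 3 and between 0.963 and 1.11 in the others. No culture was left out of the main comparison. Summed TPM (transcript abundance scaled by length and by library) of 8 epithelial markers ranged from 528 to 3937 in controls and from 1169 to 1714 after GDNF, and that of 15 stromal markers from 515 to 2575 and from 596 to 1708. RNA of both marker lists was therefore found in every culture, and no listed marker was at 0 throughout. *Tagln*, *Acta2* and *Vim* led the stromal sum, at 495, 313 and 238 TPM on average in controls. Such sums do not show which cells made the RNA. RNA from bulk cultures cannot tell apart fewer cells of a type and less RNA per cell. *Xist* was higher than 4 Y-linked genes in controls 3 and 7 and GDNF 6 and 12, and the reverse held in the other 4 cultures. Control 3 and GDNF 6 held both, with Y-linked genes at 1.502 TPM in the former and 6.46 TPM in the latter.

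Fibrillar collagens supplied the largest share of collagen RNA in 7 of the 8 cultures. By mean TPM, which is scaled by transcript length and allows genes to be set side by side, *Col3a1* was highest at 186 TPM, followed by *Col1a2* at 125, *Col1a1* at 88.0 and *Col6a1* at 70.8. *Col18a1* at 49.9 TPM and *Col4a1* at 49.2 were the highest basement membrane collagens and were separated by less than their spread between cultures. Next came *Col6a2* at 43.9 TPM, *Col5a1* at 37.9, *Col4a2* at 30.2 and *Col5a2* at 22.5. A mean of 1 TPM or more was reached by 27 collagens and of 10 TPM or more by 11.

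The summed TPM of basement membrane collagens was 63.0 in control 3, 115 in control 7, 152 in control 14 and 116 in control 21. After GDNF it was 138 in culture 6, 204 in culture 12, 195 in culture 17 and 188 in culture 22. The groups overlapped by a single pair, since control 14 lay above GDNF 6. The means were 112 ± 36.6 and 181 ± 29.4 TPM (SD, n = 4 cultures each). TPM carries no TMM factor, and without such a factor the median of all genes itself stood 0.25 higher after GDNF on the log2 scale, against 0.03 with it.

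The summed TPM of fibrillar collagens was 92.3, 357, 848 and 338 in controls 3, 7, 14 and 21, and 116, 771, 823 and 511 in GDNF cultures 6, 12, 17 and 22. In both groups a single culture, control 3 and GDNF 6, lay far under the rest. The means of 409 ± 317 and 555 ± 323 TPM (SD, n = 4 each) differed by less than that spread. As a share of collagen TPM, fibrillar collagens made up 54.8% ± 11.2 in controls and 55.3% ± 16.4 after GDNF, and basement membrane collagens 19.3% ± 6.70 and 23.0% ± 10.4. In GDNF 6 basement membrane collagens, at 38.4%, exceeded fibrillar collagens, at 32.3%, and in no other culture did they. Without control 3 and GDNF 6, the basement membrane share was 16.2% ± 3.35 in controls and 17.9% ± 2.04 after GDNF (n = 3 each).

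**Figure D1:**
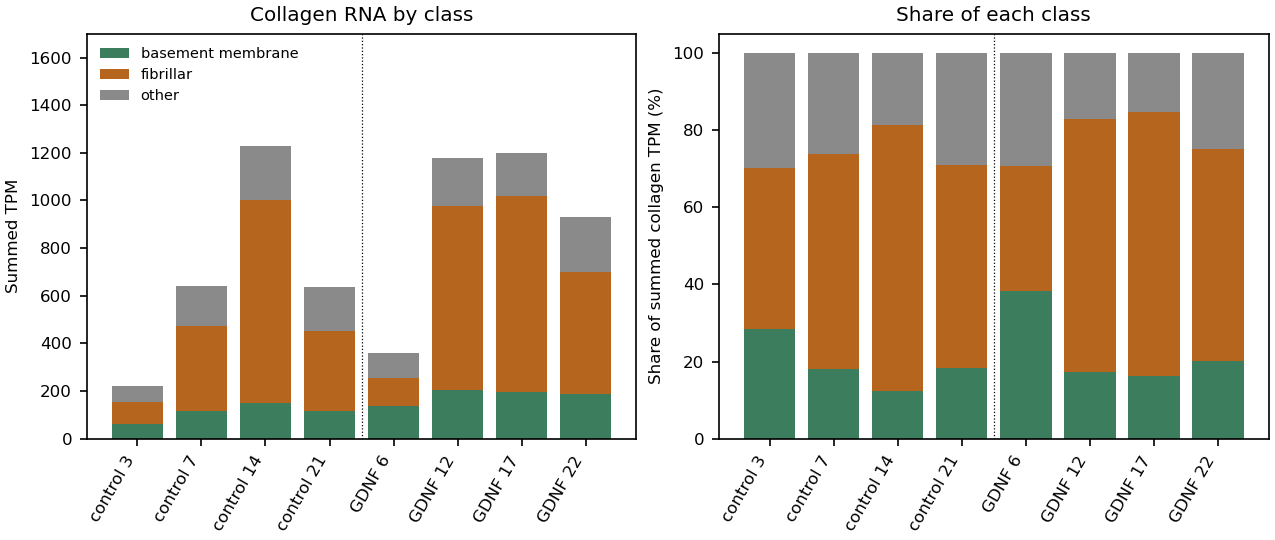
Summed TPM of basement membrane, fibrillar and other collagens in each culture (left) and the share of each class in percent (right), 1 bar per culture, with a dotted line between the groups. Fibrillar collagens ranged from 92.3 TPM in control 3 to 848 TPM in control 14 and from 116 TPM in GDNF 6 to 823 TPM in GDNF 17, a wider range than between the groups.

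The question put to the comparison was whether collagen genes differed on culture day 7 between cultures with and without the earlier GDNF pulse. At an adjusted p of 0.05 (edgeR quasi-likelihood test, Benjamini-Hochberg adjustment over 16557 genes), 0 of 41 collagens and 0% of all genes passed. The smallest adjusted p among collagens was 0.167. At an unadjusted p of 0.05, 1 collagen was higher (*Col2a1*) against 9.25% of all genes, and 1 was lower (*Col6a2*) against 12.9%, so that 4.88% of collagens passed against 22.1% of all genes. With scaling by library size only, the all-gene shares were 19.9% higher and 5.13% lower. With DESeq2, *Col2a1* alone passed of the 26 collagens given an adjusted p, where 10.6% of all genes with one passed. The groups did not overlap for 1 collagen higher after GDNF, *Col20a1*, against 6.99% of all genes, and for 0 lower, against 6.26%, or 13.2% in either direction.

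The direction of the estimates was uneven. Of 41 collagens, 32 had a fold change above 0 against 52.5% of all genes, and their median log2 fold change was 0.28 against 0.03 over all genes. All 8 basement membrane collagens and 10 of 11 fibrillar collagens lay above 0, with medians of 0.39 and 0.38, compared with 14 of 22 other collagens and a median of 0.18. Genes of a class share cultures and cell types and are not independent, and leaving out control 3 alone lowered the fibrillar median to 0.08 and the basement membrane median to 0.22, whereas leaving out control 14 raised them to 0.80 and 0.55. Without control 3 and GDNF 6 together the medians were 0.33 for fibrillar and 0.34 for basement membrane collagens.

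**Figure D2:**
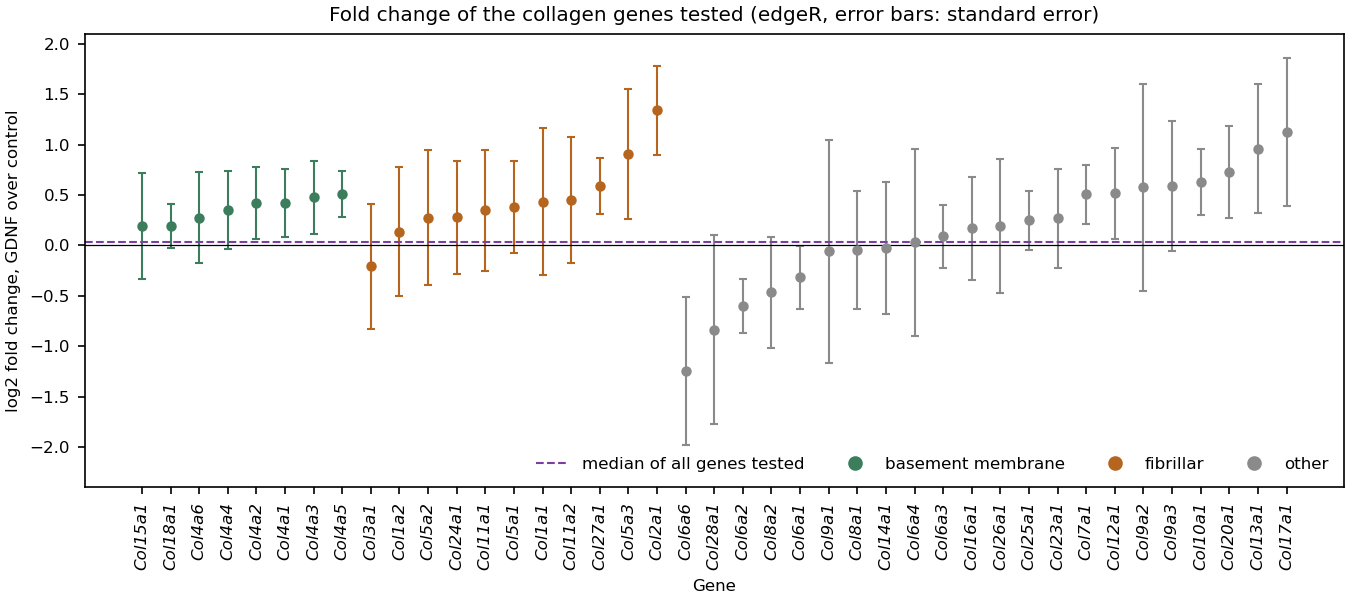
Log2 fold change (GDNF over control, edgeR) of the 41 collagens tested, with standard errors as bars, ordered within basement membrane, fibrillar and other collagens. The dashed line is the median of all genes tested, 0.03. All 8 basement membrane estimates lie between 0.19 and 0.51, and those of the other class range from -1.25 to 1.13.

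*Col4a1* and *Col4a2* encode the chains of the common type IV network and lie head to head on chromosome 8 of GRCm38, *Col4a1* from 11198423 to 11312889 and *Col4a2* from 11312805 to 11449287. *Col4a1* stood at 78.9, 149, 263 and 121 CPM (counts scaled to library size with TMM normalization) in controls 3, 7, 14 and 21, and at 141, 226, 255 and 197 CPM in GDNF cultures 6, 12, 17 and 22. Control 14 was the highest of all 8 and control 3 the lowest, so the groups overlapped. In edgeR the log2 fold change was 0.42 ± 0.33 (SE, edgeR adjusted p = 0.467). *Col4a2* gave the same size, 0.42 ± 0.36 (SE, adjusted p = 0.502), from 91.2 ± 50.9 and 122 ± 32.6 CPM (SD, n = 4 each). Control 14 carried weight here, since without it the log2 fold changes were 0.81 for *Col4a1* and 0.86 for *Col4a2*, and both passed an unadjusted p of 0.05.

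Across the 8 cultures the log2 CPM of this pair followed each other closely. Pearson's r was 0.999 (exact permutation p = 2.48e-05, the smallest these cultures can give) and Spearman's rho was 1 (exact permutation p = 4.96e-05), and r was 0.997 without controls 3 and 14, the cultures farthest from the median. After Benjamini-Hochberg adjustment over the 6 gene pairs examined, the p of r was 0.000149. By TPM the ratio of *Col4a1* to *Col4a2* stayed between 1.55 and 1.74 in all 8 cultures, a coefficient of variation of 3.79%, while *Col4a1* itself ranged from 13.9 to 76.9 TPM.

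The promoter windows of the pair are shown because the genes start in a shared region. Genes on different chromosomes also moved together, as *Col1a1* on chromosome 11 and *Col1a2* on chromosome 6 did (r = 0.992). Whether the shared start has a part in the correlation was not tested. Each window, from RefSeq on GRCm38.p6, runs from 250 bases before to 50 bases after a transcription start, 5′ to 3′ on the gene's strand. That of *Col4a1* is chr8:11312777-11313076 on the minus strand and that of *Col4a2* is chr8:11312555-11312854 on the plus strand. Their starts lie 21 bases apart and the windows overlap by 78 bases. Capitals mark the CCAAT motif (on the other strand it reads ATTGG), the GC box motif GGGCGG (on the other strand it reads CCGCCC) and the TATA motif TATAAA (on the other strand it reads TTTATA).
Col4a1: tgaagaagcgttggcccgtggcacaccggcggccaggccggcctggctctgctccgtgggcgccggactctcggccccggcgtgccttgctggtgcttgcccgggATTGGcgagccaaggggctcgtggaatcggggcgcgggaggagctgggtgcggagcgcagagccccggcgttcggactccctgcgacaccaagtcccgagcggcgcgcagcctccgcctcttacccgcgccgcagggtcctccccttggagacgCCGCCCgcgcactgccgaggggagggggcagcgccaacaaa
Col4a2: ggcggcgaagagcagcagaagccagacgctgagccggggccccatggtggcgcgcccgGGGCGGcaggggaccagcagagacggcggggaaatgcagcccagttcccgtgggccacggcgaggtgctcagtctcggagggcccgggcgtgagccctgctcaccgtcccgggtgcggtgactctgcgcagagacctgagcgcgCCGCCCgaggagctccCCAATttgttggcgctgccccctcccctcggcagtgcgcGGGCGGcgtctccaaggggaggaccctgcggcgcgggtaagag
The overlap holds 1 GGGCGG, which appears as CCGCCC in the *Col4a1* window. *Col4a1* has 1 CCAAT motif and *Col4a2* has 1, and neither window holds TATAAA. Of 32851 promoter windows of this length, 37.4% hold CCAAT, 35.7% GGGCGG and 13.6% TATAAA on either strand. RefSeq windows were at hand for 35 of the 44 collagens, 38 windows in all, of which 34.2% hold CCAAT, 60.5% GGGCGG and 13.2% TATAAA. A match is a run of letters and does not show that a factor binds there.

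*Col4a3* and *Col4a4*, the pair of the mature glomerular network, were lower in level, at 3.32 and 1.58 TPM over all cultures. *Col4a3* stood at 5.79, 15.3, 17.01 and 13.9 CPM in controls 3, 7, 14 and 21 and at 9.51, 17.02, 24.2 and 21.7 CPM in GDNF cultures 6, 12, 17 and 22. Control 3 and GDNF 6 were the lowest of the 8, and the groups overlapped. The log2 fold changes were 0.48 ± 0.36 for *Col4a3* and 0.35 ± 0.39 for *Col4a4* (SE, edgeR adjusted p = 0.450 and 0.611). The genes followed each other across cultures (r = 0.968, exact permutation p = 0.000174, adjusted p = 0.000260, rho = 0.976, exact permutation p = 0.000397), and r was 0.898 without control 3 and GDNF 6. Of the exonic bases of *Col4a3*, 5.65% overlap an antisense transcript, whose reads cannot be told apart without strand. Exons of other collagens overlapped other genes too, at most 6.07% of bases, in *Col9a3*. Podocytes make this network in the glomerulus, and the summed TPM of 5 podocyte markers was lowest in control 3 and GDNF 6, at 12.2 and 21.2, and between 34.7 and 96.2 in the other cultures. The part of these cells in the values was not tested.

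*Col4a5* and *Col4a6*, head to head on chromosome X, had a lower correlation, and the difference between the correlations was not tested. *Col4a5* stood at 24.6, 35.1, 20.7 and 17.3 CPM in controls 3, 7, 14 and 21 and at 30.7, 42.5, 28.9 and 36.6 CPM in GDNF cultures 6, 12, 17 and 22. Control 7 lay above GDNF 6 and GDNF 17, so the groups overlapped, and the other 3 controls were under every GDNF culture. The log2 fold change was 0.51 ± 0.23 (SE, edgeR adjusted p = 0.228), the smallest adjusted p among basement membrane collagens. *Col4a6* was near 2 CPM, with a log2 fold change of 0.27 ± 0.45 (SE, adjusted p = 0.748), which turned to -0.15 without GDNF 12. The pair had r = 0.660 (exact permutation p = 0.0778, adjusted p = 0.0778, rho = 0.643, exact permutation p = 0.0962), and r was 0.437 without controls 14 and 21. On log2(TPM + 1) r was 0.695 (exact permutation test, adjusted p = 0.0440). The TPM ratio of *Col4a5* to *Col4a6* ranged from 5.57 to 14.5, and its highest values were 11.98 in GDNF 17 and 14.5 in GDNF 22. The windows of this pair have starts 1343 bases apart and do not overlap, and any part of this in the correlation was not tested. They are chrX:141475169-141475468 on the plus strand for *Col4a5* and chrX:141474027-141474326 on the minus strand for *Col4a6*, with the same capitals.
Col4a5: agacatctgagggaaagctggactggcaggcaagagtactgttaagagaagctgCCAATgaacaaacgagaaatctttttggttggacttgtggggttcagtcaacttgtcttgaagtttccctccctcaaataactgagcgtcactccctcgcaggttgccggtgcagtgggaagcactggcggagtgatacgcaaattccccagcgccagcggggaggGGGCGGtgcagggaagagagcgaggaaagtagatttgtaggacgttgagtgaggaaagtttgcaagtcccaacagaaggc
Col4a6: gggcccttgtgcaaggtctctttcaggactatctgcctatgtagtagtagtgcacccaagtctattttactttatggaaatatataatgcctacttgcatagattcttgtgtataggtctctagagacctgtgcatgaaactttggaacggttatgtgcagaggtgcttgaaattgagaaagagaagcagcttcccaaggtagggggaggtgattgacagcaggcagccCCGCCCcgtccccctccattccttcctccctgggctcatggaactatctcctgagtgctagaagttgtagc
*Col4a5* holds 1 CCAAT and 1 GGGCGG motif, and *Col4a6* holds 1 GGGCGG motif alone.

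*Col15a1* and *Col18a1* encode basement membrane collagens that carry sugar side chains, and the latter is the source of endostatin. *Col18a1* stood at 308, 267, 179 and 303 CPM in controls 3, 7, 14 and 21 and at 348, 357, 217 and 289.9 CPM in GDNF cultures 6, 12, 17 and 22. Its lowest cultures were control 14 and GDNF 17, which were the highest of their groups for *Col4a1*, and the groups overlapped. It had a log2 fold change of 0.19 ± 0.22 (SE, edgeR adjusted p = 0.615). *Col15a1* resembled the fibrillar genes in its lowest cultures, GDNF 6 at 6.72 CPM and control 3 at 6.77 CPM, where the other 6 cultures lay between 19.1 and 36.9 CPM. Its log2 fold change of 0.19 ± 0.53 (SE, adjusted p = 0.854) turned to -0.10 without control 3.

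**Figure D3:**
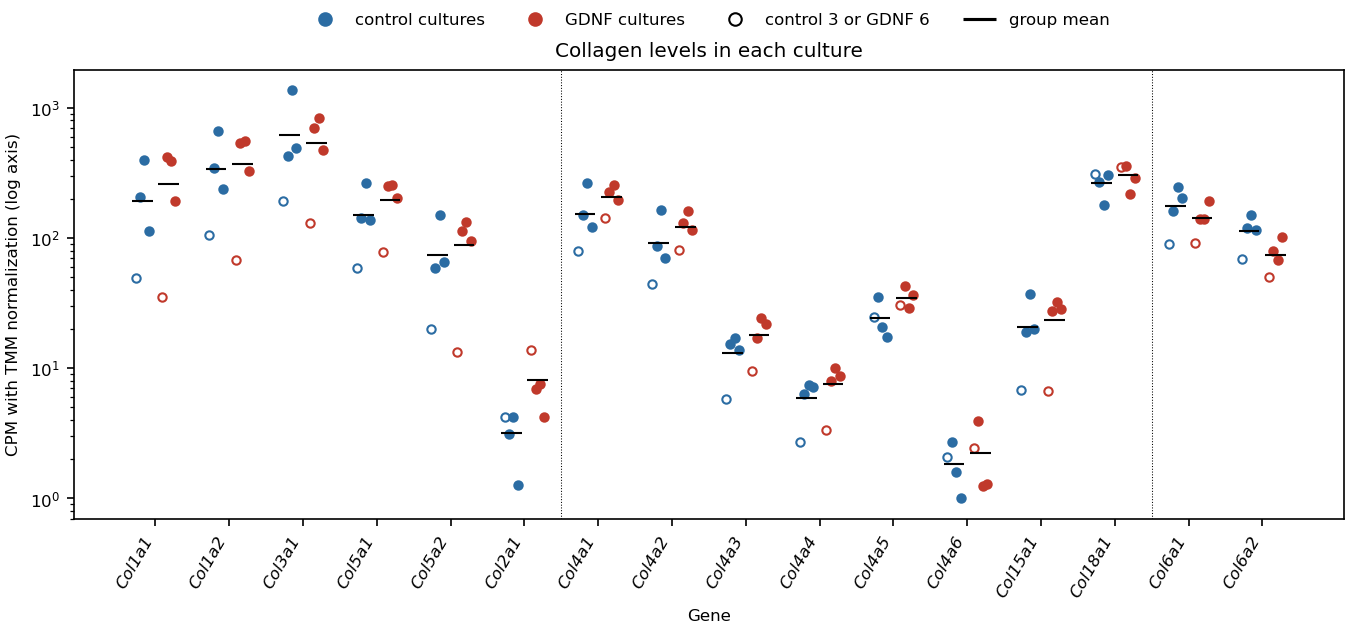
CPM with TMM normalization (log axis) of 16 collagens in each culture, with fibrillar genes at left, basement membrane genes in the middle and type VI genes at right. Each point is a culture, lines are group means and open circles are control 3 and GDNF 6. For *Col1a1* the open circles lie at 49.5 and 35.1 CPM and the other 6 cultures between 112 and 419 CPM.

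Of the 27 collagens with a mean of at least 5 CPM, the 5 with the largest SD of log2 CPM within groups were fibrillar, *Col1a1*, *Col5a2*, *Col1a2*, *Col5a3* and *Col3a1*. *Col1a1* stood at 49.5, 206, 399 and 112 CPM in controls 3, 7, 14 and 21 and at 35.1, 419, 388 and 193 CPM in GDNF cultures 6, 12, 17 and 22. Control 3 and GDNF 6 were far under the rest and the groups overlapped. For GDNF over control, the log2 fold change was 0.43 ± 0.73 (SE, edgeR adjusted p = 0.752). It was 1.08 without control 14 and 0.099 without GDNF 12. *Col1a2*, which encodes the partner chain of type I collagen, had 337 ± 237 CPM in controls and 370.5 ± 227 after GDNF (SD, n = 4 each), and its log2 fold change of 0.14 ± 0.64 (SE, adjusted p = 0.917) changed sign when any of controls 3 and 21 or GDNF 12 and 17 was left out.

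*Col3a1*, the type III chain, stood at 191, 428, 1363 and 494 CPM in controls 3, 7, 14 and 21 and at 131, 698, 839 and 473 CPM in GDNF cultures 6, 12, 17 and 22. Control 14 was the highest and GDNF 6 the lowest of the 8. It was the only fibrillar gene with an estimate under 0, at -0.21 ± 0.62 (SE, edgeR adjusted p = 0.866), and without control 14 the estimate was 0.53. In TPM, which carries no TMM factor, the *Col3a1* means were 178 ± 152 in controls and 194 ± 112 after GDNF (SD). *Col5a1* and *Col5a2*, whose type V chains are built into type I fibrils, had log2 fold changes of 0.38 ± 0.45 and 0.28 ± 0.67 (SE, adjusted p = 0.641 and 0.834). The estimate of *Col5a2* turned to -0.04 without control 3.

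The type I chains followed each other across the cultures, and so did *Col3a1* and *Col5a2*, which are neighbours on chromosome 1. Other fibrillar pairs were not examined. For *Col1a1* and *Col1a2* r was 0.992 (exact permutation p = 0.000149, adjusted p = 0.000260, rho = 0.929, exact permutation p = 0.00223), and for *Col3a1* and *Col5a2* r was 0.969 (exact permutation p = 7.44e-05, adjusted p = 0.000223, rho = 0.976, exact permutation p = 0.000397). Without control 3 and GDNF 6 these r were 0.976 and 0.881, and for *Col3a1* and *Col5a2* r was 0.972 without control 14 and GDNF 6, the cultures farthest from the median. By TPM the ratio of *Col1a1* to *Col1a2* ranged from 0.511 to 0.855. Windows were at hand for *Col1a2*, chr6:4505368-4505667, and *Col3a1*, chr1:45311288-45311587, both on the plus strand, and are shown as those of the most abundant collagens.
Col1a2: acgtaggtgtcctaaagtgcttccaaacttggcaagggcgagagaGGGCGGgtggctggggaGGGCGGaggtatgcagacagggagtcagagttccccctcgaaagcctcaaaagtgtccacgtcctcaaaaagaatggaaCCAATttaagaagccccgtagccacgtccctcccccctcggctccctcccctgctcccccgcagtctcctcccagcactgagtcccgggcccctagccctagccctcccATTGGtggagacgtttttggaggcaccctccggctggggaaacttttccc
Col3a1: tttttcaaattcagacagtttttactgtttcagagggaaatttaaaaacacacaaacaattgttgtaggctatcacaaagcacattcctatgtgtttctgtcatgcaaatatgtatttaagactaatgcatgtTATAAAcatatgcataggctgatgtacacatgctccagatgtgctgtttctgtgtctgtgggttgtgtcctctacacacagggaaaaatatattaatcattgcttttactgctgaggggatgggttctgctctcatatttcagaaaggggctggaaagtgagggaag
*Col1a2* holds 2 CCAAT and 2 GGGCGG motifs, and *Col3a1* holds a TATAAA run 117 bases before the start given by RefSeq and neither of the others.

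**Figure D4:**
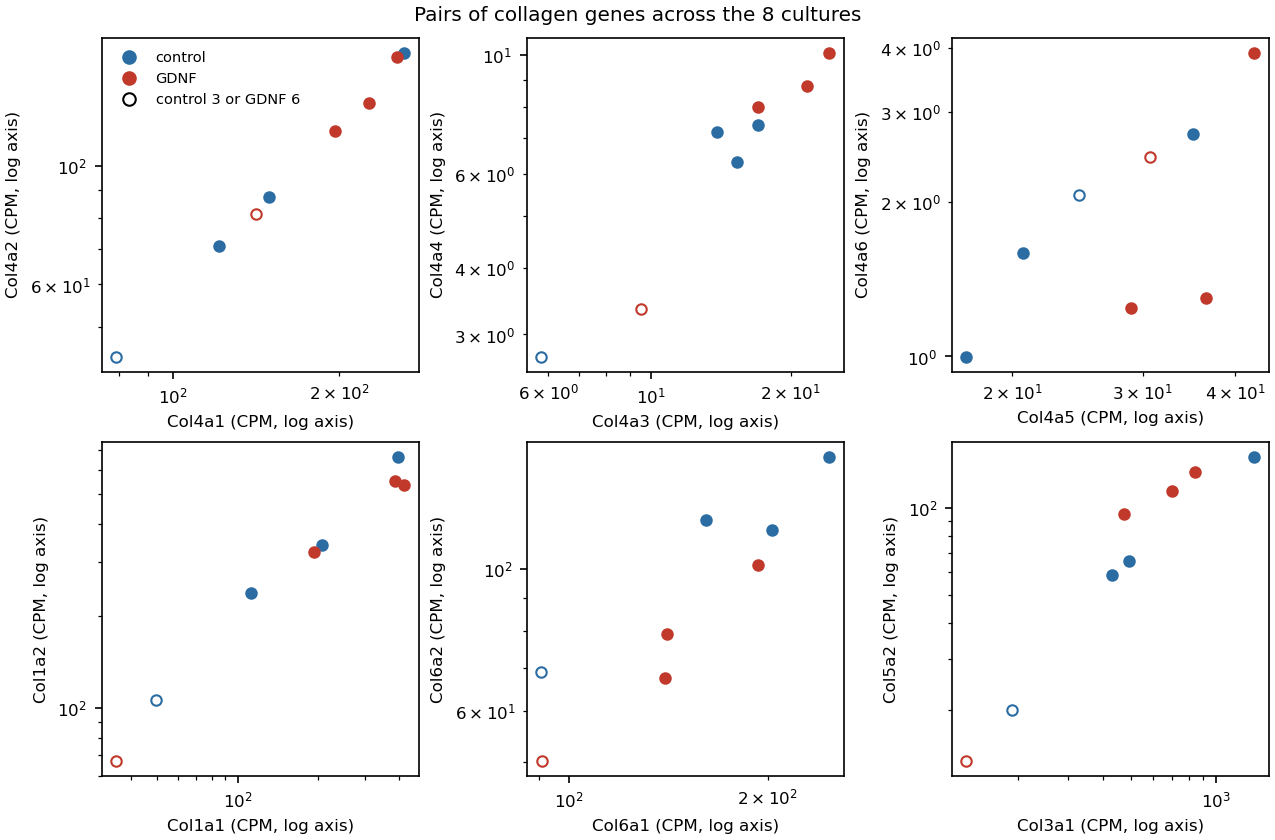
Pairs of collagen genes across the 8 cultures, with CPM of each gene on log axes and 1 point per culture. Open circles are control 3 and GDNF 6. The *Col4a1* and *Col4a2* panel is closest to a line (r = 0.999) and the *Col4a5* and *Col4a6* panel farthest from it (r = 0.660).

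*Col2a1*, the cartilage collagen that is also made in some embryonic epithelia, was the collagen with the largest estimate. It stood at 4.21, 3.12, 4.23 and 1.26 CPM in controls 3, 7, 14 and 21 and at 13.8, 6.87, 7.52 and 4.22 CPM in GDNF cultures 6, 12, 17 and 22, from 106 to 396 and from 341 to 1283 counts. These counts are summed over 2 listed transcripts, and a read shared by them counts in each. GDNF cultures 6, 12 and 17 exceeded every control, and GDNF 22 lay just under control 14. The log2 fold change was 1.34 ± 0.44 (SE, edgeR adjusted p = 0.167), with a DESeq2 adjusted p of 0.0361. It kept its direction with each culture left out, between 0.95 without GDNF 6 and 1.55 without GDNF 22, and was 1.11 without control 3 and GDNF 6. Its level was low, 0.462 ± 0.188 TPM in controls and 1.55 ± 0.693 TPM after GDNF. Of 4 chondrocyte markers, *Acan* and *Matn1* were at 0.222 CPM or under, *Sox9*, which tubule cells also express, had a log2 fold change of 0.05 ± 0.46 (SE, adjusted p = 0.963), and *Comp* one of 0.61 ± 0.51 (SE, adjusted p = 0.495).

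The other 5 fibrillar genes, *Col5a3*, *Col11a1*, *Col11a2*, *Col24a1* and *Col27a1*, had log2 fold changes between 0.28 and 0.91 and did not pass either threshold. Of these, *Col27a1*, named after its values were seen, had the smallest adjusted p, with 15.9 ± 5.41 CPM in controls and 24.0 ± 6.19 CPM after GDNF (SD, n = 4 each, log2 fold change 0.59 ± 0.28 SE, edgeR adjusted p = 0.245). *Col5a3*, also named for its values, had a log2 fold change of 0.91 ± 0.64 (SE, adjusted p = 0.420).

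Type VI collagen, the beaded filament collagen found between basement membrane and interstitial matrix, was the other group with high levels, and both of its abundant chains had estimates under 0. *Col6a2* stood at 69.1, 119, 149 and 115 CPM in controls 3, 7, 14 and 21 and at 50.2, 79.0, 67.5 and 101 CPM in GDNF cultures 6, 12, 17 and 22. Controls 7, 14 and 21 exceeded every GDNF culture, and control 3 lay within the GDNF range. Its log2 fold change was -0.60 ± 0.26 (SE, edgeR adjusted p = 0.219), from 113 ± 33.1 to 74.4 ± 21.4 CPM (SD, n = 4 each). It stayed under 0 in every alternative run, between -0.79 without GDNF 22 and -0.41 with scaling by library size only. The unadjusted p stayed under the threshold in 2 of the 8 fits that left out a culture, those without control 3 or GDNF 22.

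*Col6a1*, the partner chain, had 176 ± 66.9 CPM in controls and 141 ± 41.8 CPM after GDNF (SD, n = 4 each), with a log2 fold change of -0.32 ± 0.31 (SE, edgeR adjusted p = 0.561). With scaling by library size only the estimate was -0.13. In TPM, which carries no TMM factor, the *Col6a1* means were 70.1 ± 32.4 in controls and 71.6 ± 24.6 after GDNF (SD). The chains followed each other (r = 0.904, exact permutation p = 0.00228, adjusted p = 0.00274, rho = 0.857, exact permutation p = 0.0107), and r was 0.872 without control 3 and GDNF 6. The TPM ratio of *Col6a1* to *Col6a2* was 1.23, 1.27, 1.56 and 1.66 in controls 3, 7, 14 and 21 and 1.70, 1.67, 1.94 and 1.79 in GDNF cultures 6, 12, 17 and 22. The ratio was thus higher in every GDNF culture than in every control, a pattern noticed in these values and not tested. *Col6a3*, another chain of the common form, named for its role, had a log2 fold change of 0.09 ± 0.32 (SE, adjusted p = 0.892). *Col6a4* and *Col6a6* were at 0.293 and 0.0480 TPM.

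The remaining collagens were at lower levels than *Col6a1* and *Col6a2*, and the highest of them was *Col16a1* at a mean of 17.4 TPM. The fibril-associated collagens, known as FACIT, had a median log2 fold change of 0.52 over the 7 tested (*Col9a1*, *Col9a2*, *Col9a3*, *Col12a1*, *Col14a1*, *Col16a1* and *Col20a1*), with 5 above 0 and estimates from -0.06 to 0.72. *Col20a1* was the only collagen without overlap, at 0.194, 0.512, 0.651 and 0.631 CPM in controls 3, 7, 14 and 21 and at 1.09, 0.818, 0.657 and 0.731 CPM in GDNF cultures 6, 12, 17 and 22. GDNF 17 and control 14 were nearly level, and these values rested on 14 to 101 counts. Its log2 fold change was 0.72 ± 0.46 (SE, edgeR adjusted p = 0.366), and the groups did overlap with DESeq2 size factors or upper-quartile scaling. The 4 transmembrane collagens, *Col13a1*, *Col17a1*, *Col23a1* and *Col25a1*, all had estimates above 0, from 0.25 to 1.13, and none passed a threshold.

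The network collagens *Col8a1*, *Col8a2* and *Col10a1* had log2 fold changes from -0.46 to 0.63, and *Col26a1* and *Col28a1* from -0.84 to 0.19, none past a threshold. *Col7a1*, which forms the anchoring fibrils that fasten basement membrane to the matrix under it, also named for its role, had a log2 fold change of 0.51 ± 0.30 (SE, edgeR adjusted p = 0.330). Of the untested genes, *Col19a1* was listed at 0 counts in 5 cultures and had at most 7 counts, *Col22a1* had at most 29 counts and *Col6a5* at most 73, the last of these in GDNF 22 with at most 14 in the others. A floor of 3 counts corresponds to between 0.0299 and 0.0415 CPM per culture.

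The spread between cultures of a group was large for collagens compared with other genes. Over 11461 genes with a mean of at least 5 CPM, the median SD of log2 CPM within groups was 0.27. It was 1.18 over 9 fibrillar collagens, 0.58 over 7 basement membrane collagens and 0.55 over 11 other collagens. *Col1a1*, at 1.47, had a larger SD than 99.7% of these genes, and *Col4a5* and *Col18a1*, at 0.34 and 0.35, had the smallest of these 27 collagens. Control 3 and GDNF 6 were the lowest 2 cultures for 20 of 41 collagens, 48.8% against 8.17% of all genes, and for 8 of 11 fibrillar, 3 of 8 basement membrane and 9 of 22 other collagens. *Col9a1* alone had them as its highest 2. These 2 cultures were singled out after the values were seen, so their share of collagens is a description and not a test.

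The summed TPM of stromal markers was 515, 975, 2575 and 961 in controls 3, 7, 14 and 21 and 596, 1421, 1708 and 1579 in GDNF cultures 6, 12, 17 and 22, lowest in control 3 and GDNF 6 and highest in control 14, as the fibrillar sum was. Between the groups the estimates with TMM factors lay mostly on opposite sides of 0 for stromal markers and fibrillar collagens, with control 14 included. Of the 15 stromal markers, 13 had estimates under 0 for GDNF over control, with a median log2 fold change of -0.42. Over all genes 52.5% of estimates lay above 0, with a median of 0.03. In TPM, which carries no TMM factor, *Tagln* averaged 495 in controls and 459 after GDNF, *Acta2* 313 and 388, and *Vim* 238 and 298. Control 14 was the highest culture for each of these markers, which led the stromal sum. The opposite sides therefore depend on the scaling, and the weight of control 14 in them is not given here. *Lum* alone of the stromal markers passed the unadjusted threshold, at -1.30 ± 0.37 (SE, edgeR adjusted p = 0.167), where 12.9% of all genes were lower. The epithelial sum was lowest in control 14, at 528 TPM, and 6 of its 8 markers had estimates under 0. Of these, 1 was past the unadjusted threshold, against the same 12.9% of all genes. Smaller sums were found for 7 endothelial markers, from 19.9 to 49.4 TPM, and for 4 leukocyte markers, from 2.86 to 8.57 TPM. Of 6 endothelial markers tested, *Tek* was higher and *Egfl7* lower at the unadjusted threshold, against 9.25% and 12.9% of all genes. The part of any of these cell types in the collagen values was not tested.

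The genes that modify, fold and crosslink collagen were centred near 0. Of 30 tested in this list, 0 were higher and 2 were lower at an unadjusted p of 0.05, against 9.25% and 12.9% of all genes, and the median log2 fold change was -0.01. *Ppib*, the prolyl isomerase cyclophilin B, stood at 515, 366, 447 and 245 CPM in controls 3, 7, 14 and 21 and at 291, 233, 231 and 201 CPM in GDNF cultures 6, 12, 17 and 22. Control 21 lay within the GDNF range and the other controls above it. The log2 fold change was -0.72 ± 0.23 (SE, edgeR adjusted p = 0.167). *P4hb*, the protein disulfide isomerase that is also a subunit of prolyl 4-hydroxylase, had 941 ± 403 CPM in controls and 535 ± 58.5 after GDNF (SD, n = 4 each), a log2 fold change of -0.81 ± 0.28 (SE, edgeR adjusted p = 0.169). Both enzymes also serve proteins other than collagens. *Serpinh1*, the collagen chaperone HSP47, had one of -0.42 ± 0.34 (SE, adjusted p = 0.475), and *Lox*, the crosslinking lysyl oxidase, one of 0.08 ± 0.86 (SE, adjusted p = 0.965), both named for their role.

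Among 9 collagen receptors tested, 2 were higher and 1 was lower at an unadjusted p of 0.05, against 9.25% and 12.9% of all genes, and the groups did not overlap for any of these 3, where they did not for 6.99% of all genes in the higher and 6.26% in the lower direction. *Itga1*, the integrin subunit that binds type IV collagen, stood at 19.8, 24.8, 17.05 and 19.7 CPM in controls 3, 7, 14 and 21 and at 26.7, 30.1, 27.6 and 30.2 CPM in GDNF cultures 6, 12, 17 and 22. Every GDNF culture was above every control, and the log2 fold change was 0.49 ± 0.15 (SE, edgeR adjusted p = 0.167). *Ddr1*, the epithelial discoidin domain receptor, stood at 136, 122, 104 and 121 CPM in controls and at 172, 159, 148 and 138 CPM after GDNF in the same order of cultures. Its log2 fold change was 0.35 ± 0.14 (SE, edgeR adjusted p = 0.190). *Itgb1*, the beta subunit shared by all collagen-binding integrins, was lower, at 653, 559, 766 and 616 CPM in controls and 420, 533, 509 and 505 CPM after GDNF. Its log2 fold change was -0.40 ± 0.15 (SE, edgeR adjusted p = 0.187).

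**Figure D5:**
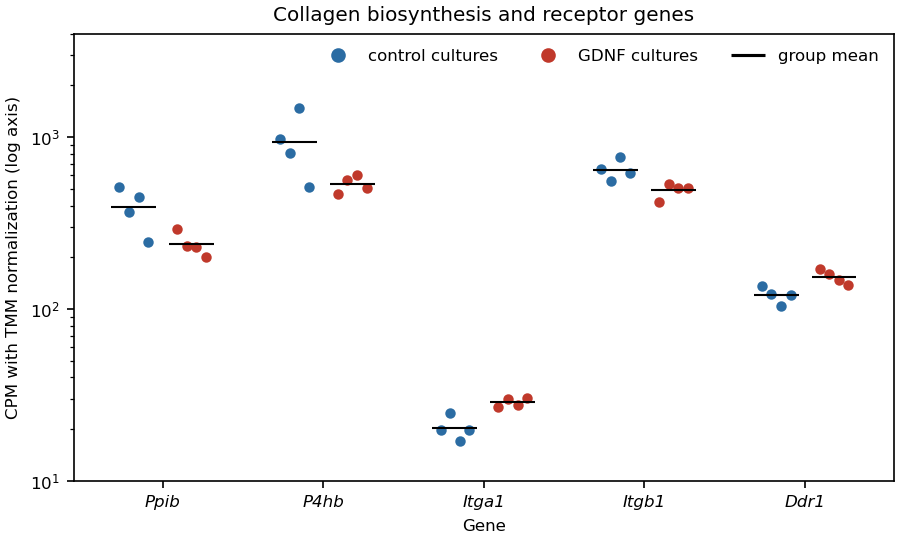
CPM with TMM normalization (log axis) of the 5 biosynthesis and receptor genes with an unadjusted p of at most 0.05, with 1 point per culture and lines at the group means. Group means of *Itga1* were 20.3 CPM in controls and 28.7 CPM after GDNF, and those of *Ppib* were 393 and 239 CPM.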

How the data were processed

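RNA of 4 control and 4 GDNF tubuloid cultures was sequenced by the authors from SMART-Seq libraries as paired-end reads, over lanes whose cultures are not given. Per the labels, the processing tools were STAR, featureCounts and DESeq2 on mm10 (GRCm38), and versions, strand handling and the treatment of reads with several matches are not given in the sources used here. The authors deposited raw counts for 33068 RefSeq transcripts of 24063 symbols, and a read shared by transcripts counts in each. Summed counts and CPM of genes with several listed transcripts can therefore exceed the reads. Among collagens these were *Col2a1*, *Col4a5*, *Col6a3*, *Col6a6*, *Col9a1*, *Col17a1* and *Col18a1* with 2 transcripts and *Col25a1* with 3. The deposited TPM is scaled by the authors over all transcripts. Transcript lengths were worked out from the deposited FPKM, which served no other purpose.

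The test on counts summed per symbol was the quasi-likelihood F test of edgeR 4.0.16 (R 4.3.3) with default filterByExpr, TMM factors and a threshold of 0.05 after Benjamini-Hochberg adjustment over the 16557 genes kept. The standard error is the absolute log2 fold change over the square root of the F statistic. A gene's TPM is that of its transcript with most counts on average. At totals of 72991721 to 97490625 counts, counting error is small except for genes with few counts, and floors cover counting error only. Spreads used log2(CPM + 1), and pair correlations used log2 CPM with nothing added unless stated. Pairs were tested over all 40320 orders with two-sided exact permutation tests. Overlapping exons were read from GENCODE release M21. Promoter windows came from RefSeq. Alternatives were library size only, upper quartile, DESeq2 1.42.0 and its size factors, limma 3.58.1 voom with quality weights, other filters, 1 transcript per gene, a term for *Xist* or Y-linked cultures, and each culture left out. Leaving out control 3 and GDNF 6 together, and each kind of culture alone, were added after seeing the data. The steps were also run on simulated counts in which some genes were changed, with outcomes not given here. Those counts were drawn independently for each gene, so shifts shared by genes of a culture were not covered. Summaries were made in Python 3.11.15 (pandas 2.3.3, NumPy 2.4.6, SciPy 1.17.1), and figures with matplotlib 3.10.9.

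The members and the lists of epithelial, stromal, endothelial, podocyte, leukocyte and chondrocyte markers, biosynthesis genes and receptors were chosen with earlier results of these data known. Genes described singly were the basement membrane collagens, *Col1a1*, *Col1a2*, *Col3a1*, *Col5a1* and *Col5a2*, the 10 highest by TPM, those with an unadjusted p of at most 0.05 or no overlap, and list genes with such a p. Other genes described singly were chosen for their values or role.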

Additional observations from a re-analysis of the deposited data

How the results depend on the processing

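No paired analysis was possible because the groups share no culture numbers. No collagen passed an adjusted p of 0.05 in any edgeR or limma-voom fit, and DESeq2 gave 1208 genes and 1 collagen, *Col2a1* (adjusted p 0.0361), with *Ppib* (0.0356) and *P4hb* (0.0423) among the enzymes. At an unadjusted p, collagens higher after GDNF numbered 2 (*Col2a1* and *Col4a5*) with 1 CPM in 4 cultures, no filter, limma-voom or a term for the kind of culture (7.71% to 11.5% of all genes), 4 with library size only (adding *Col10a1* and *Col27a1*, against 19.9% of all genes), and 4 without control 3 and GDNF 6 (*Col2a1*, *Col4a3*, *Col5a3* and *Col7a1*, against 7.78%). Collagens lower numbered 0 with 1 CPM in 4 cultures, library size only or upper quartile (14.4%, 5.13% and 12.5% of all genes). With each culture left out, 1 to 4 were higher (4 without control 7, control 14, GDNF 6 or GDNF 17) and 0 to 1 lower, against 5.19% to 10.2% and 7.88% to 15.3% of all genes, and 1 to 5 did not overlap (5 without GDNF 6, where 25.2% of all genes did not). Without overlap were 2 collagens with library size only (16.6% of all genes), 0 with DESeq2 size factors or upper quartile (13.2% and 13%), and 6 without control 3 and GDNF 6, against 26.1% of all genes.

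The all-gene shares under the same settings were those above, with 9.96% higher by limma-voom and 10.4% lower without control 3 and GDNF 6. Biosynthesis genes higher numbered 1 with library size only or limma-voom, 2 without control 3 and GDNF 6, and 0 to 2 with a culture left out. Those lower numbered 1 with library size only or without control 3 and GDNF 6, and 2 to 4 with a culture left out. Receptors higher numbered 4 of 9 with library size only, where 19.9% of all genes were higher, and 1 to 2 with a culture left out (5.19% to 10.2%). Those lower numbered 0 with library size only or without control 3 and GDNF 6, and 0 to 1 with a culture left out (7.88% to 15.3%). The median of the other collagens ranged from 0.0098 to 0.47 with a culture left out. The mean basement membrane share in controls was 26.3% by summed counts, and r of *Col4a5* and *Col4a6* was 0.695 on log2(TPM + 1), with an adjusted p of 0.0440 from the exact permutation test.

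Signs changed for *Col1a2*, from -0.16 to 0.69, *Col3a1*, from -0.51 to 0.53, *Col4a6*, from -0.15 to 0.52, *Col5a2*, from -0.038 to 0.89, and *Col15a1*, from -0.10 to 0.63, with a culture left out. *Col3a1* was also above 0 by limma-voom (0.10) and in *Xist* cultures alone (0.40), and in Y-linked cultures alone *Col1a2* was -0.034 and *Col4a6* -0.027. The test of a difference between the kinds of culture called 0 genes at an adjusted p of 0.05, and 94 genes but no collagen at an unadjusted one. *Col1a1* ranged from 0.099 to 1.08 with a culture left out, and *Col20a1* was 1.40 in *Xist* cultures and 0.11 in Y-linked cultures alone. The cause of these shifts was not tested. Including *Col1a1* and *Col20a1*, 423 alternatives for single genes kept the direction and side of the threshold. The direction reversed in 13, and 3 were stronger, those of *Col2a1*, *Ppib* and *P4hb* with DESeq2. For counts, medians, shares and correlations, 212 alternatives kept the side of the threshold, stayed within 1.5 times the count or moved by less than 1 SD. By the same rules 52 alternatives moved and 1 was stronger.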
